A study of Mus musculus with 5 samples.

Results

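The enzymes of folate and nucleotide synthesis followed here are the products of 9 genes: Shmt1, Shmt2, Mthfd1, Mthfd2, Tyms, Ppat, Gart, Paics and Cad. They were taken by gene symbol, and every probe set annotated with exactly 1 of these genes was kept, which gave 26 of the 22626 probe sets that are not array controls. The rule itself uses no measured value, though the genes were proposed with earlier results of these data known. Their RNA was measured in wild-type mouse embryos at the E10.5 stage. The dissected tissue contained the pharyngeal arches, and the labels name it as containing second heart field. The 5 samples formed 1 group without treatment or mutation, each was an individual tissue isolate, and the strain was 129P2/OlaHsd with 2 generations of backcrossing to C57BL/6. Separate litters are not mentioned in the labels, so p-values measure only the spread between these samples, which may be technical. From each isolate 10 ng of total RNA was amplified, biotin-labelled and hybridised to 1 Affymetrix mouse 430A array, and the number of arrays limits the precision.

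Folate carries single carbon units between reactions. Serine hydroxymethyltransferases load a carbon from serine onto tetrahydrofolate, the MTHFD enzymes convert the loaded folate between its oxidation states, and the carbon is then spent on the purine ring and on the methyl group that turns dUMP into dTMP. Growing embryonic tissue copies its DNA often and builds most of its nucleotides anew, and low maternal folate is a known risk factor for neural tube and craniofacial defects. Ppat, Gart and Paics act in the building of the purine ring, and Cad opens the building of pyrimidines.

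Of the 9 genes, 4 lie on mouse chromosome 5 (Tyms, Cad, Ppat and Paics). Ppat and Paics, which act in the same pathway, lie there head to head on opposite strands. In the RefSeq gene models of GRCm38.p6, Paics runs from 76951302 to 76967509 on the plus strand and Ppat from 76913249 to 76951578 on the minus strand, so their 5′ ends overlap by 277 bases. The RefSeq promoter windows, 250 bases before to 50 bases after 1 start per gene, were searched on both strands for CACGTG, the E-box bound by Myc and related factors, for CCAAT, the box bound by NF-Y, and for TTTCCCGC or TTTGGCGC, forms of the E2F site. All 9 genes had a window. CACGTG was in 2 of the 9 windows (7.15% of all 32851 windows), CCAAT in 5 of 9 (37.4%) and an E2F form in 1 of 9 (1.56%). Shmt2 and Cad held none of these letters in their windows. Every match is shown with its surroundings, to let the genes that share a motif be compared; capitals mark the match, and ATTGG and GCGGGAAA are CCAAT and TTTCCCGC read on the other strand. A match describes letters and not a bound site. Mthfd2 held CCAAT 3 times. The windows of Mthfd2 and Mthfd1 lie inside gene models (83305704 to 83326011 on the minus strand and 76254406 to 76319820 on the plus strand) that reach farther upstream than the starts used here. The gene models of Cad (plus strand) and Tyms (minus strand) also reach upstream of those starts, to 31054620 and 30073645, which lie within their windows.
Tyms, 61 bases before the start, chr5:30073669-30073698, minus strand: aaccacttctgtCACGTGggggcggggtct
Shmt1, 47 bases before the start, chr11:60811295-60811324, minus strand: atgctcccactgATTGGgccgctgtagggg
Mthfd1, 69 bases before the start, chr12:76255151-76255180, plus strand: acactatctctgATTGGctaaaagcgaggc
Mthfd2, 96 bases before the start, chr6:83317683-83317712, minus strand: tgactccttcagCCAATcaggacctgctcc
Mthfd2, 47 bases before the start, chr6:83317634-83317663, minus strand: ctgagatctcctATTGGctcctacgccggc
Mthfd2, 22 bases before the start, chr6:83317609-83317638, minus strand: ccggctcaggggCCAATgggcgcgcgggag
Gart, 33 bases before the start, chr16:91646988-91647017, minus strand: ggcgggctgcggCCAATgagcagccgagtc
Paics, 203 bases before the start, chr5:76951087-76951116, plus strand: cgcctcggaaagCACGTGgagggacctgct
Paics, 23 bases before the start, chr5:76951267-76951296, plus strand: tcccgctctccgCCAATcagctagggcaaa
Ppat, 211 bases before the start, chr5:76951771-76951800, minus strand: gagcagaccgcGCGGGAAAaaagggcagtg
Ppat, 158 bases before the start, chr5:76951718-76951747, minus strand: aggatcagaggGCGGGAAAgggaggtgcaa

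Signals are in scaled units of the array software, on a linear scale. The background level of an array was the 95th percentile of the signal over 241 probe sets of 190 genes that other tissues use (taste and smell receptors of sensory neurons, products of adult glands and of hair, germ cell genes, lymphocyte receptors and alpha interferons), and it stood at 17.0, 16.2, 17.8, 22.8 and 24.8 in replicates 1 to 5. A strict level, for which 31 probe sets of casein kinases and interferon receptors were added, stood between 62.1 and 93.5. The added genes were not chosen as genes that other tissues use, and the strict level lay above the median signal of every array. It serves as a higher bar and not as a second estimate of background. The median signal of the arrays ran from 28.1 to 32.2. The labelled tissue carried its markers. All 5 arch mesenchyme and crest markers (Prrx1, Twist1, Crabp1, Dlx2 and Tfap2a) were above background, as were 3 of 4 second heart field markers (Isl1, Foxc2 and Mef2c) and 4 of 4 epithelial markers, while Tbx1 was not, at 28.2 ± 10.9 (SD, n = 5). Markers of other cells also passed: 5 of 5 of neurons, 3 of 4 of red cells and 3 of 4 of heart muscle. For liver and yolk sac 2 of 4 passed, for endothelium 2 of 3 and for leukocytes 1 of 3. Over all genes 53.9% were above background, so the lower of these counts say little about the tissue. All 9 S phase markers passed.

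Of the 9 enzyme genes, 8 were above background and Tyms was not, against 53.9% of all 12393 genes (limma, one-sided, Benjamini-Hochberg adjusted p below 0.05). At the strict level 6 passed, against 32.2% of all genes, and Shmt2 and Cad were then lost. The median excess over background of the 9 genes was 3.43 log2 units, and that of all genes was 0.85. By probe set, 21 of 26 were above background, against 49.9% of all probe sets, and 12 of 26 were above the strict level, against 28.1%. The same 21 probe sets exceeded the background level on all 5 arrays. Levels of different probe sets are not compared below, since probe sets bind with different strength.

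**Figure D1:**
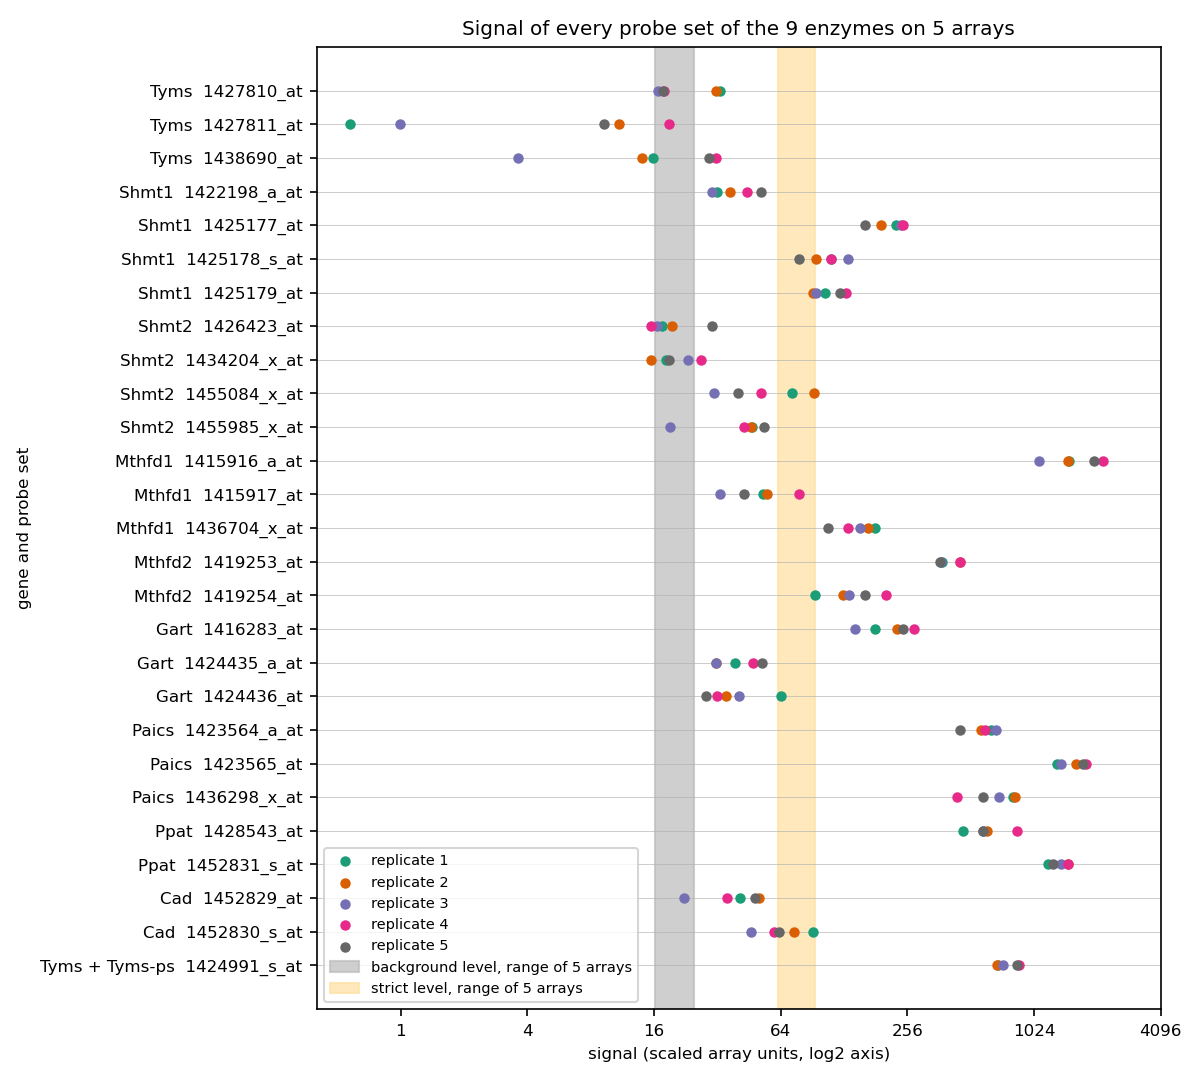
Signal of each probe set (rows, labelled by gene and probe set) on a log2 axis, 1 point per array, coloured by replicate, with the range of the background level in grey and of the strict level in yellow. The 3 probe sets that are Tyms's own lie in, below or just right of the grey band, at 32.8 or less, and the probe set shared with Tyms-ps, in the lowest row, lies between 679 and 873.

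Shmt1 makes the cytosolic serine hydroxymethyltransferase. Its brightest probe set (1425177_at) gave 227, 192, 238, 244 and 162 in replicates 1 to 5, a mean of 212 ± 34.7 (SD, n = 5). The 5 arrays lay within 1.51-fold of each other, all far above the background level, and the excess was 3.43 ± 0.19 log2 units (SE; adjusted p = 3.17e-16, limma). All 4 of its probe sets were above background. Probe sets 1425177_at and 1425178_s_at rose and fell together, with the SD of their log2 difference over the arrays at 0.11, smaller than in 97.6% of 5581 pairs of probe sets of 1 gene that were both above background. In replicate 5 both had their lowest signal, while 1422198_a_at had its highest there (51.6).

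Shmt2 makes the mitochondrial enzyme, which feeds carbon units into the mitochondrial branch of folate metabolism. Its brightest probe set (1455084_x_at) gave 72.6, 92.6, 30.8, 51.8 and 40.0, a mean of 57.6 ± 25.0 (SD, n = 5). Replicate 2 was 3.01 times replicate 3, the widest range of any enzyme's brightest probe set. The excess was 1.45 ± 0.24 log2 units (SE; adjusted p = 2.40e-06, limma), and the mean lay below the strict level (excess -0.58). Probe set 1455985_x_at was also lowest in replicate 3, with 46.6, 46.5, 19.1, 42.9 and 53.2. The other Shmt2 probe sets, 1426423_at (19.8 ± 5.95, SD, n = 5) and 1434204_x_at (20.5 ± 4.41, SD, n = 5), were not above background, so the call rests on probe sets whose names end in _x_at, a class that can bind related transcripts.

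Mthfd1 makes the multifunctional cytosolic enzyme that interconverts formyl, methenyl and methylene folate. Probe set 1415916_a_at gave 1508, 1487, 1078, 2171 and 1980, a mean of 1645 ± 434 (SD, n = 5). Replicate 4 was 2.01 times replicate 3, and the excess was 6.36 ± 0.15 log2 units (SE; adjusted p = 8.76e-25, limma). That value rests on the choice of probe set: the excess was 3.55 for the mean of its 3 probe sets and 1.37 for 1415917_at, the only one with a plain _at name. Its second probe set, 1415917_at, was also lowest in replicate 3 (32.8) and highest in replicate 4 (78.5). The third, 1436704_x_at, ran the other way. It gave 179.5, 167, 153, 133 and 108, with its lowest signals in replicates 4 and 5, where 1415916_a_at had its highest. The log2 difference of these probe sets went from 2.82 in replicate 3 to 4.20 in replicate 5, and its SD of 0.62 was exceeded by 12.9% of all pairs.

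Mthfd2 makes the mitochondrial dehydrogenase and cyclohydrolase, an enzyme best known from embryonic and tumour cells. Probe set 1419253_at gave 374, 455, 371, 455 and 368, a mean of 405 ± 46.5 (SD, n = 5). Replicates 2 and 4 stood together above the other 3, and the whole range was 1.24-fold. The excess was 4.37 ± 0.17 log2 units (SE; adjusted p = 1.77e-19, limma). The second probe set, 1419254_at, varied more, with 93.1 in replicate 1 and 204 in replicate 4, and it too was above background and above the strict level.

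Tyms makes thymidylate synthase, the enzyme that methylates dUMP. None of its own 3 probe sets was above background. The brightest, 1427810_at, gave 32.8, 31.5, 16.6, 17.8 and 17.7, a mean of 23.3 ± 8.12 (SD, n = 5), and its excess of 0.19 ± 0.29 log2 units (SE) did not pass (adjusted p = 0.442, limma). Replicates 1 and 2 exceeded the background level and the other 3 did not. Probe set 1438690_at exceeded it in replicates 4 and 5 alone (31.6 and 29.2). Probe set 1427811_at was below the level on every array, at 0.573 to 18.8. Another probe set, 1424991_s_at, is annotated with both Tyms and its pseudogene Tyms-ps and so falls outside the 26. It gave 691, 679, 729, 873 and 846, a mean of 764 ± 89.8 (SD, n = 5), with an excess of 5.29 ± 0.16 log2 units (SE). Taken as the probe set of Tyms, a choice made after the values were seen, it would bring the count of enzymes above background to 9 of 9. RNA of the gene and of the pseudogene cannot be told apart by this probe set. That the other 3 did not pass does not show that Tyms RNA was absent.

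Ppat makes the amidotransferase that commits phosphoribosyl pyrophosphate to the purine pathway. Probe set 1452831_s_at gave 1199, 1483, 1380, 1486 and 1261, a mean of 1362 ± 129 (SD, n = 5). The range was 1.24-fold and the excess 6.13 ± 0.15 log2 units (SE; adjusted p = 4.61e-24, limma). Probe set 1428543_at gave 469.6, 614, 584, 847 and 587, so both were lowest in replicate 1 and highest in replicate 4. The SD of their log2 difference, 0.21, was smaller than in 84.6% of all pairs.

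Gart makes a multifunctional enzyme of purine synthesis, and a shorter transcript of the gene, which ends within an intron, encodes only part of its activities. Probe set 1416283_at gave 180.5, 229, 144, 275 and 243, a mean of 214 ± 52.2 (SD, n = 5). It was lowest in replicate 3 and highest in replicate 4, as Mthfd1 was, and the excess was 3.43 ± 0.18 log2 units (SE; adjusted p = 1.26e-16, limma). The other probe sets were dim but above background, 1424435_a_at at 40.3 ± 9.29 (SD, n = 5) and 1424436_at at 39.97 ± 14.1 (SD, n = 5). Probe set 1424436_at went against the brightest one: it was highest in replicate 1 (63.95) and lowest in replicates 5 and 4 (28.4 and 31.9). The log2 difference between them went from 1.497 in replicate 1 to 3.11 in replicate 4, with an SD of 0.74, and 5.98% of all pairs had a larger one. Over the 19 such pairs of the enzymes the median SD was 0.39, close to the 0.37 over all 5581 pairs, and 12 of the 19 lay above the latter. Which transcript each probe set binds is not given in the annotation used here.

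Paics makes the enzyme of the carboxylation step and the next step of purine synthesis. Probe set 1423565_at gave 1312, 1630, 1377, 1813 and 1754, a mean of 1577 ± 224 (SD, n = 5), with an excess of 6.33 ± 0.14 log2 units (SE; adjusted p = 6.32e-25, limma). It was highest in replicates 4 and 5. Probe set 1436298_x_at gave 816, 832, 701, 440.4 and 586, so replicates 4 and 5 were its lowest. Probe set 1423564_a_at gave 639, 575, 676, 599 and 455, with replicate 5 alone low. All 3 were above the strict level, and their directions across the arrays differed. The log2 difference of 1423565_at and 1436298_x_at was 0.69 in replicate 1 and 2.04 in replicate 4, and its SD of 0.55 was exceeded by 19.3% of all pairs. The 925 probe sets above background with names in _x_at deviated by a median of -0.06 log2 units in replicate 4 and 0.09 in replicate 1, against -0.58 and 0.31 for 1436298_x_at, and the part of probe set class in these differences was not tested.

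Cad makes the multifunctional protein that opens pyrimidine synthesis. Probe set 1452830_s_at gave 91.3, 74.0, 46.1, 59.6 and 62.5, a mean of 66.7 ± 17.0 (SD, n = 5). Replicate 1 was the highest and replicate 3 the lowest. The excess was 1.74 ± 0.21 log2 units (SE; adjusted p = 1.06e-08, limma), and the mean was under the strict level (excess -0.30). Probe set 1452829_at was lowest in replicate 3 as well, with 41.1, 50.5, 22.2, 35.6 and 48.4, and it was above background with an excess of 0.97 ± 0.23 log2 units (SE).

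**Figure D2:**
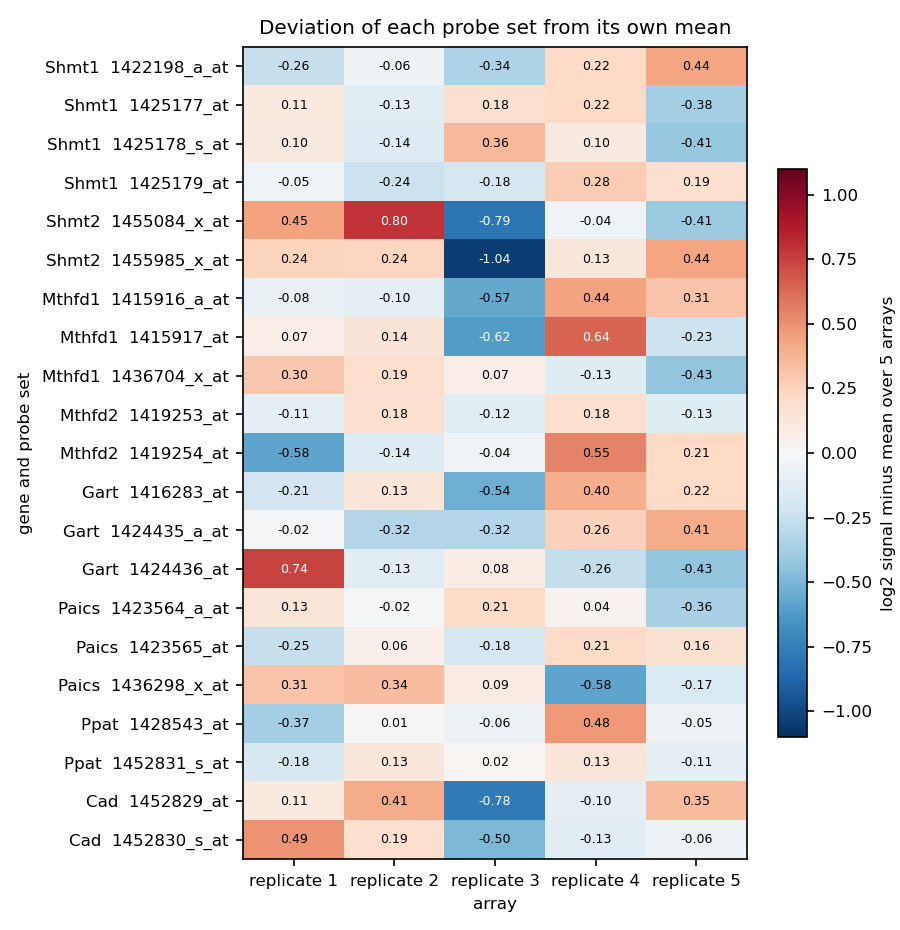
Heat map of the 21 probe sets above background, with 1 column per array and each cell the log2 signal minus the mean of that probe set over the 5 arrays. The brightest probe sets of Mthfd1, Gart and Paics are red in replicate 4, where 1436298_x_at of Paics (-0.58), 1424436_at of Gart (-0.26) and 1436704_x_at of Mthfd1 (-0.13) are blue.

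The spread of each enzyme over the 5 isolates was set against that of genes of like signal. Of the 9, all with a mean above the background level, 0 passed the F test against the trend of variance on signal from limma, at the adjusted threshold (0.0811% of 7400 genes did) and at an unadjusted p below 0.05 (5.59% of genes did). At so low a rate over all genes, 0 of 9 is no result about the enzymes. Mthfd1 came nearest, its variance being 3.11-fold that of the trend (adjusted p = 0.909, limma), followed by Shmt2 with 2.84-fold (adjusted p = 0.948, limma). Ppat and Mthfd2 were the steadiest, at 0.36 and 0.35 times the trend. Of the 23 enzyme probe sets with a mean above the level, 0 passed at either threshold, against 0.227% (adjusted) and 5.32% (unadjusted) of 12750 probe sets (limma). With 5 arrays the test finds only large differences in spread, so the order of arrays below is a description.

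Across the arrays the 8 enzymes above background were not all high on the same one. By brightest probe set, 5 of the 8 were highest in replicate 4 (Shmt1, Mthfd1, Gart, Paics and Ppat). Of all 6675 genes above background 21.2% were highest there. Ppat was nearly level in replicates 4 and 2 (1486 and 1483). Some other probe sets of Shmt1, Mthfd1, Gart and Paics were highest in other replicates, while 1425179_at of Shmt1 and 1415917_at of Mthfd1 were highest in replicate 4. Lowest in replicate 3 were 4 of the 8 (Shmt2, Mthfd1, Gart and Cad), against 23.9% of all genes. The median deviation of the 8 from their own means was -0.10, 0.13, -0.34, 0.20 and -0.08 log2 units in replicates 1 to 5, while that of all genes above background stayed between -0.02 and 0.04. The count in replicate 4 depended on the scaling. With every array shifted to the same median, which moves replicate 5 by 0.12 log2 units, it was 3 (Mthfd1, Gart and Paics), and the lowest count in replicate 3 remained 4.

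**Figure D3:**
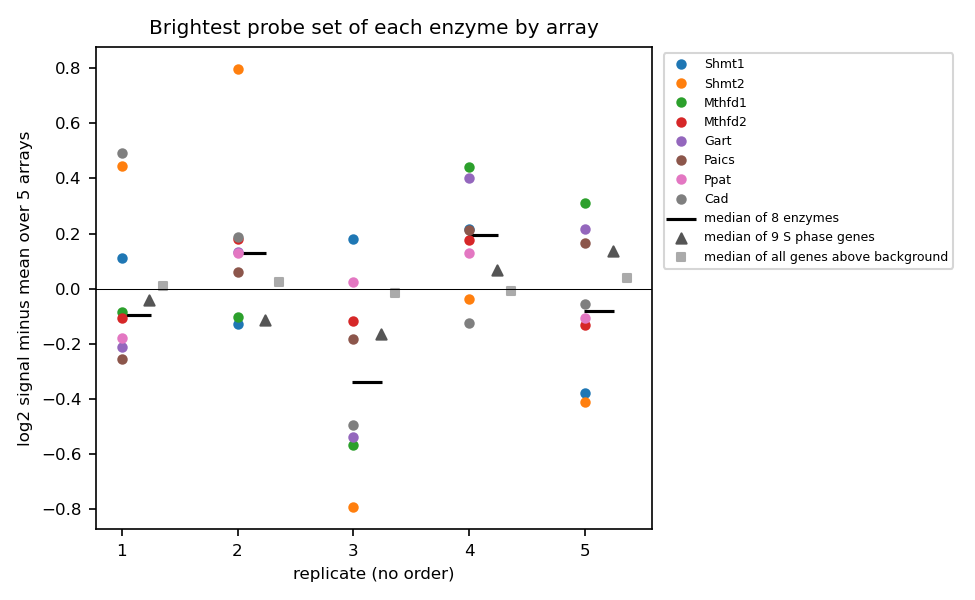
Deviation of the brightest probe set of each of the 8 enzymes above background (coloured points) from its mean over the 5 arrays, in log2 units, with the median of the 8 (black bars), of 9 S phase genes (triangles) and of all genes above background (squares). The bars lie at 0.20 in replicate 4 and -0.34 in replicate 3, and the squares lie near 0.

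The S phase markers deviated by a median of -0.04, -0.11, -0.16, 0.07 and 0.14 log2 units in replicates 1 to 5, and their summed signal ran from 9667 to 11322. By median deviation they were lowest in replicate 3, as the enzymes were, and highest in replicate 5, while their summed signal was lowest in replicate 2 and highest in replicate 4. Markers of other cells moved in the same samples. In replicate 4 the median deviation was -0.52 for the 5 neuron markers, -0.63 for 3 red cell markers and -1.36 for 2 liver and yolk sac markers. The last value rests on Ttr alone, which stood at -2.80 there, while Apoa2 stood at 0.08. In replicate 3 neurons stood at 0.31 and red cells at 0.20. In replicates 3 and 4 the medians of some other markers moved the same way as the enzymes. Heart muscle (3 markers) stood at -0.44 in replicate 3 and 0.14 in replicate 4, and endothelium (2 markers) at -0.06 and 0.22. The endothelial markers differed in replicate 3, with Tek at 0.05 and Kdr at -0.16. Heart muscle was highest in replicate 5, at 0.42, where the enzymes stood at -0.08. Arch mesenchyme and second heart field both stood at -0.19 in replicate 3, but at -0.08 and -0.33 in replicate 4. The summed signal ran from 1919 to 3246 over the 5 neuron markers, from 8388 to 16724 over the 4 measured red cell markers and from 137 to 967 over the 4 of liver and yolk sac, where Afp and Apoa1 were not above background. The part of these cells in the enzyme values was not tested. In whole tissue, fewer cells of a type and less RNA per cell cannot be told apart.

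Between the enzymes, the closest profiles across the 5 arrays were those of Mthfd2 and Ppat, with a root mean square difference of 0.08 log2 units, and of Mthfd1 and Gart, with 0.13. Shmt2 was the farthest from 6 of the other 7 enzymes, with differences of 0.50 to 0.63, and its nearest was Cad (0.35). Cad was in turn farthest from Shmt1 (0.43). Such a difference grows with the spread of a gene, so it does not measure the order of the arrays alone. Of the 8, Shmt2 had the largest SD of log2 signal (0.64), and Ppat and Mthfd2 the smallest (0.14 and 0.16). Among 6667 other genes above background, the 5 whose profile was closest to the mean profile of the 8 enzymes were Lpcat1, an acyltransferase of phospholipids (0.026), D10Wsu102e (0.031), Npr3, a natriuretic peptide receptor (0.033), Tcf20 (0.037) and the cyclin Ccnd3 (0.038). The median difference over these genes was 0.31. Lpcat1 gave 1539.9, 1651, 1237, 1647 and 1459, lowest in replicate 3 and about as high in replicates 2 and 4. Likeness over 5 arrays is a description, and many genes can come this close.

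The other genes of these pathways gave 35 of 53 above background (66.0%, against 53.9% of all genes) and 26 at the strict level. Of the 69 genes listed, 16 were not analysed here. Around the folate cycle 7 of 11 passed. They included Ahcy, which clears S-adenosylhomocysteine (1154 ± 263, SD, n = 5), the glycine cleavage genes Gcsh (729 ± 121, SD, n = 5) and Dld (126 ± 23.3, SD, n = 5), and Ggh, which trims folate polyglutamates (113 ± 14.5, SD, n = 5). The 4 that did not pass were Aldh1l1 (11.5 ± 9.12, SD, n = 5), Bhmt (19.7 ± 9.25, SD, n = 5), Fpgs (21.6 ± 5.93, SD, n = 5) and Ftcd (3.46 ± 2.71, SD, n = 5). Aldh1l1, Ftcd and Bhmt are best known from adult liver, and Fpgs adds the glutamate tail that keeps folate in cells.

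For folate uptake, 1 of 4 measured genes passed, the reduced folate carrier Slc19a1, with 56.4, 44.7, 21.2, 55.5 and 39.0 and an excess of 1.08 ± 0.23 log2 units (SE; adjusted p = 8.72e-05, limma). It too was lowest in replicate 3, as 23.9% of all genes above background were, and it did not reach the strict level. Other companion genes differed. Ggh, Dld, Hprt and Cmpk1 were highest in replicate 3, and Ggh, Cmpk1 and Ctps2 were lowest in replicate 4. The receptor genes Folr1 (8.94 ± 7.43, SD, n = 5) and Folr2 (11.2 ± 5.93, SD, n = 5) and the transporter Slc46a1 (25.2 ± 6.25, SD, n = 5) were not above background. All 3 genes of serine synthesis, which supplies the carbon that Shmt1 and Shmt2 load, were above background. Psat1, the aminotransferase, gave 1546, 1955, 1648, 2899 and 2439, with replicates 4 and 5 above the others. Phgdh, the first enzyme of the route, averaged 520.4 ± 94.5 (SD, n = 5) and was lowest in replicate 3 (385). Psph, the phosphatase of the last step, averaged 82.6 ± 19.0 (SD, n = 5).

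Of 6 other purine genes, 4 passed. Prps1, which makes the substrate of Ppat, gave 502, 354, 450, 766 and 432, highest in replicate 4. The adenylosuccinate genes Adss (182 ± 32.4, SD, n = 5) and Adsl (79.7 ± 19.0, SD, n = 5) and Prps2 (46.1 ± 6.91, SD, n = 5) also passed, and the muscle form Adssl1 (7.02 ± 6.15, SD, n = 5) and Impdh1 (10.9 ± 11.1, SD, n = 5) did not. Of 5 other pyrimidine genes, 4 passed. They were Cmpk1 (2418 ± 356, SD, n = 5), Ctps, which makes CTP (1478 ± 439, SD, n = 5), Umps, which follows Cad and Dhodh (283 ± 59.6, SD, n = 5), and Ctps2 (163 ± 29.7, SD, n = 5). Dhodh, the mitochondrial step between Cad and Umps, did not pass (18.9 ± 4.29, SD, n = 5).

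Rrm1 and Rrm2, also S phase markers, were among the genes of thymidylate and deoxynucleotide metabolism. Of these genes 10 of 11 passed, all 10 above the strict level too. They included the reductase subunit Rrm2 (3684 ± 228, SD, n = 5), the diphosphate kinases Nme2 (3646 ± 631, SD, n = 5) and Nme1 (1549 ± 288, SD, n = 5), and Dut (942 ± 138, SD, n = 5), whose product dUMP is the substrate of thymidylate synthase. The kinase Tk2 of mitochondria did not pass (6.12 ± 3.89, SD, n = 5). Salvage and breakdown gave 6 of 13. The salvage genes Adk (807 ± 119, SD, n = 5), Hprt (599 ± 81.7, SD, n = 5), Uck2 (371 ± 117, SD, n = 5) and Aprt (278 ± 43.6, SD, n = 5) passed. So did Pnp (69.5 ± 16.3, SD, n = 5) and Uck1 (31.5 ± 11.0, SD, n = 5). Of the 7 that did not, the first 4 by name were Ada (29.1 ± 8.70, SD, n = 5), Dpyd (10.7 ± 10.1, SD, n = 5), Dpys (9.39 ± 8.02, SD, n = 5) and Gda (5.25 ± 3.96, SD, n = 5), and all 7 except Upp1 and Ada had a mean excess of -1.47 log2 units or lower.

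**Figure D4:**
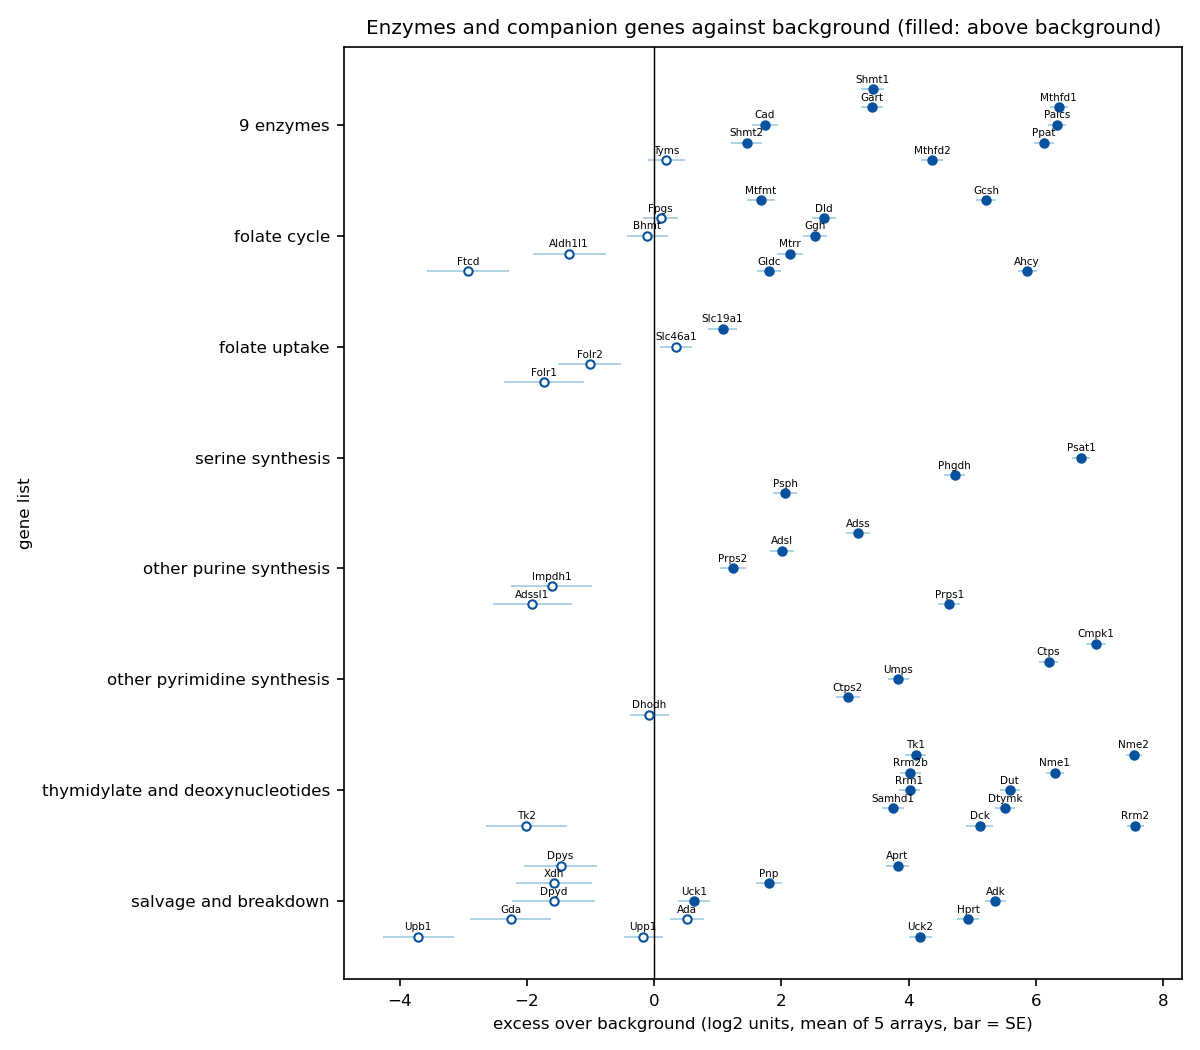
Excess over the background level (mean of 5 arrays, log2 units, bars SE) of the 9 enzymes and of the measured genes of 7 companion lists, filled where above background. Of the salvage and breakdown list, Upb1, Gda, Dpyd, Xdh and Dpys lie left of 0, and Pnp and Ada lie right of it. Of the deoxynucleotide genes 10 of 11 are filled, and the axis gives no order of RNA amounts between genes.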

How the data were processed

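The deposited table holds intensity (a signal on a linear scale) for each probe set and array. The submitters' processing notes name GCOS; its algorithm and settings are not given in the sources used here. Arrays had the same mean of 150.1 after trimming 2% at each end. Of 22690 probe sets, 64 controls were left out, and 20380 had 1 gene, 691 several and 1555 none in the platform annotation. Of the single-gene ones 20351 matched RefSeq (GRCm38.p6) by Entrez identifier; the files' symbols Adss, Adssl1 and Ctps were kept. For each of 12393 genes the brightest probe set (mean log2 signal) stood for the gene. Signals were floored at 1. Detection used limma 3.58.1 in R 4.3.3 (intercept fit, eBayes with trend and robust, one-sided, Benjamini-Hochberg) after subtracting each array's background level from log2 signal; the error of that level is left out. Variance was tested over 7400 genes with a mean above that level. Both steps were run on simulated data. The spreads planted there for the variance test were far wider than those of the enzymes, so that run does not show what the test finds at the spreads seen here.

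The members, lists and background classes were chosen with earlier results of these data known, and the exact name patterns of the background genes were written after the values were available. The genes named are all 9 enzymes, from each companion list up to 4 above background by excess and up to 4 not above it by name, the 5 closest profiles and the markers. Pnp and Uck1 were added so that all 6 passing genes of salvage and breakdown are given. Alternatives covered the background level, floor, scaling, probe set choice, filter, fit and each replicate left out. A comparison of protein sequences was not made here.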

Additional observations from a re-analysis of the deposited data

Results flagged for a closer look

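In the 27 probe sets tested for a sample far from the other 4, Shmt2 probe set 1426423_at was the 1 exception, with 30.1 in replicate 5 against 15.4 to 19.5 in replicates 1 to 4. Chance flags about 1 in 20 groups, and the probe set was not above background.

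The probe set annotated with both Tyms and Tyms-ps lies outside the enzyme probe sets and had a mean signal of 764, with 679 to 873 on the 5 arrays, against background levels of 16.2 to 24.8.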

How the results depend on the processing

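The 8 enzymes above background numbered 8 in each setting tried except 3: with the strict level there were 6, with plain probe sets alone 7, and with the probe set shared by Tyms and Tyms-ps 9. Equal medians shift an array and its background level alike, so that setting could not change the count. With the filter changed, only genes brighter than the median gene were tested and 99.98% of them passed, so its count says little. At the strict level the excess was -1.84 for Tyms, -0.58 for Shmt2 and -0.30 for Cad. Tyms also turned to -0.57 with the 99th percentile level and to -0.76 with the mean of all probe sets, and Shmt2 to -0.018 with plain probe sets alone. Of the enzyme probe sets, 12 were above the strict level and 10 of 14 passed among plain ones, which are fewer by construction. With the shared probe set, a setting chosen after the data were seen, the excess of Tyms was 5.29. With the mean of all probe sets the excess was 3.55 for Mthfd1, 3.61 for Mthfd2, 2.32 for Shmt1, 1.81 for Gart, 5.44 for Paics, 5.55 for Ppat, 1.35 for Cad and 0.63 for Shmt2. With plain probe sets alone it was 1.37 for Mthfd1, 4.97 for Ppat and 0.97 for Cad. The enzymes highest in replicate 4 numbered 3 with equal medians, 4 with the mean of all probe sets and 5 to 6 with replicate 1, 2, 3 or 5 left out; without replicate 4 the count has no meaning. The causes were not tested. Leaving out each replicate in turn left 8 enzymes, 21 probe sets and 34 to 36 companion genes above background. In each of these settings 0 enzymes passed the variance test, which says little, since few genes did. Over all genes above background the count was 6675, and 3986 at the strict level. Genes varying above the trend numbered 6, but 0 without trend and robust options, 21 with the filter on low values changed, and 4 to 14 when a replicate was left out (10 without replicate 1, 14 without replicate 2, 4 without replicate 4). No paired analysis was possible because all samples belong to 1 group. Signals near background limit what can be said of Tyms, Shmt2 and Cad.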
